A study of Mus musculus with 12 samples.

Results

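The genes described here encode the enzymes that remove peroxides, superoxide and reactive electrophiles with the help of glutathione or thioredoxin, together with NRF2 and a few of its best known targets. They were chosen by symbol. The rule took every protein-coding gene named as a glutathione S-transferase of the alpha, kappa, mu, omega, pi, theta or zeta class, a microsomal glutathione S-transferase, a glutathione peroxidase, a peroxiredoxin, a superoxide dismutase or with a symbol beginning Txn. It added Cat, Nqo1, Hmox1, Gclc, Gclm, Gsr and Nfe2l2. Of 68 matching genes, 57 had at least 10 counts in 4 or more libraries and were kept, out of 54146 gene records in all, and all 57 were also among the 15477 genes tested. The 11 that fell short were Gpx2, Gpx5, Gpx6, Gsta2, Gstm3, Gstp3, Gstt4, Mgst2, Prdx6b, Txndc2 and Txndc8. Just inside the count minimum stood Gsta1, with 10 counts in 6 libraries and 122 counts in all, and just outside it stood Gstm3, with 3 such libraries and 85 counts. The prefix Txn is broad. It brings in Txnip, an inhibitor of thioredoxin, and thioredoxin-domain proteins such as Txnl4a and Txnl4b, which belong to the splicing machinery and are not antioxidant enzymes.

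Hearts were taken 6 weeks after surgery from 3 groups of mice, with 4 libraries in each. TAC KO hearts came from Nron knockout mice after transverse aortic constriction (TAC), which narrows the aorta and loads the left ventricle with pressure. TAC WT hearts came from wild-type mice after the same constriction, and Sham WT hearts from wild-type mice after a sham operation. Nron is a long noncoding RNA, known as a repressor of the transcription factor NFAT. Sham-operated knockout hearts were not analysed here, so TAC KO can be set against TAC WT but the effect of surgery within the knockout cannot be tested. The labels do not give strain, sex, age or the design of the knockout allele, and do not say that libraries came from separate animals. The p-values therefore measure the spread between these libraries, which may be in part technical.

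Glutathione is made from its amino acids by glutamate-cysteine ligase and glutathione synthetase, and is kept reduced by glutathione reductase with electrons from NADPH. Glutathione peroxidases spend it on peroxides and glutathione S-transferases attach it to electrophiles such as lipid aldehydes. Peroxiredoxins remove peroxides with electrons from thioredoxin, which thioredoxin reductases recharge from NADPH. The transcription factor NRF2, held low by KEAP1 and stabilised under oxidative stress, pairs with small MAF proteins on antioxidant response elements near many of these genes. In heart muscle most oxidants arise in mitochondria, where Prdx3, Txn2, Txnrd2 and Sod2 act.

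Library totals ranged from 28565856 to 35777820 counts in TAC KO, 26288519 to 35945770 in TAC WT and 27596898 to 35491024 in Sham WT. The 8 cardiomyocyte markers, such as Myh6 and Tnnt2, had counts in every group and summed to between 67236 and 84268 counts per megaread (CPM). Nron had 0 counts in all 12 libraries, where 3 counts would be 0.0835 to 0.114 CPM, so the counts give no check of the knockout label. Mitochondrially encoded transcripts took 19.6% ± 1.28 of counts in TAC KO, 18.5% ± 1.21 in TAC WT and 21.5% ± 0.910 in Sham WT (SD, n = 4 each). Each library's trend of counts with GC content and transcript length also differed by genotype. The contrast of genes in the top against the bottom 20% of GC content, in log2 units, was 0.429 in TAC KO replicate 1 and 0.104 to 0.125 in the other TAC KO libraries, against -0.149 to -0.041 in the 8 wild-type libraries. The same contrast for long against short transcripts was -0.256 to -0.147 in TAC KO, against -0.035 to 0.192 in the wild-type libraries.

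Expression is given in CPM scaled by trimmed mean of M-values (TMM). Differences are log2 fold changes followed by their standard error (SE), tested with edgeR's quasi-likelihood test. Calls are at an adjusted p (Benjamini-Hochberg) under 0.05, with the adjustment made across the 15477 genes of a comparison.

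In knockout hearts under pressure load, the antioxidant genes were higher or did not pass, and no member was lower. Between TAC KO and TAC WT, 29 of the 57 members (50.9%) were higher and 0 were lower, where 15.7% of all tested genes were higher and 17.3% lower (33% in either direction). The median log2 fold change over the members was 0.20, beside 0.00 over all tested genes, and single members ranged from -0.13 to 0.93. The 29 included all 6 peroxiredoxins, 13 of 20 glutathione S-transferases and 5 of the 6 thioredoxins, thioredoxin reductases and Txnip, but none of the superoxide dismutases or catalase. The count was 19 higher and 0 lower when each library's trends with GC content and length were taken out, a step called trend removal from here on. At an unadjusted p under 0.05 the count of lower members was also 0, but the share of all tested genes at that threshold was not counted. The adjusted count of lower members was 0 with DESeq2 and with limma voom. DESeq2 called 15.3% of all its tested genes higher and 15.7% lower, and voom 15.8% and 16.9%. The members higher numbered 28 with DESeq2 and 25 with voom. The libraries of TAC KO and TAC WT did not overlap for 22 members that were higher in TAC KO (13.3% of all tested genes were separated that way) and for 1 that was lower, Gpx8 (15.2%). The summed level of the 57 members, without trend removal, was 5493 ± 170 CPM in TAC KO, 4659 ± 147 in TAC WT and 4839 ± 94.996 in Sham WT. Of these sums the thioredoxin inhibitor Txnip made up 522 ± 146, 314 ± 93.2 and 406 ± 60.8 CPM in that order. Past a change of 1.5-fold as well, 5 of the 57 members were higher in TAC KO than in TAC WT. This share is near the 8.61% of all tested genes that passed in either direction. The 5 were Mgst1, Gsta1, Gstt1, Txnip and Gstt2, and of these Gsta1, Txnip and Gstt2 lost the call at 0.05 when some single libraries were left out.

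**Figure D1:**
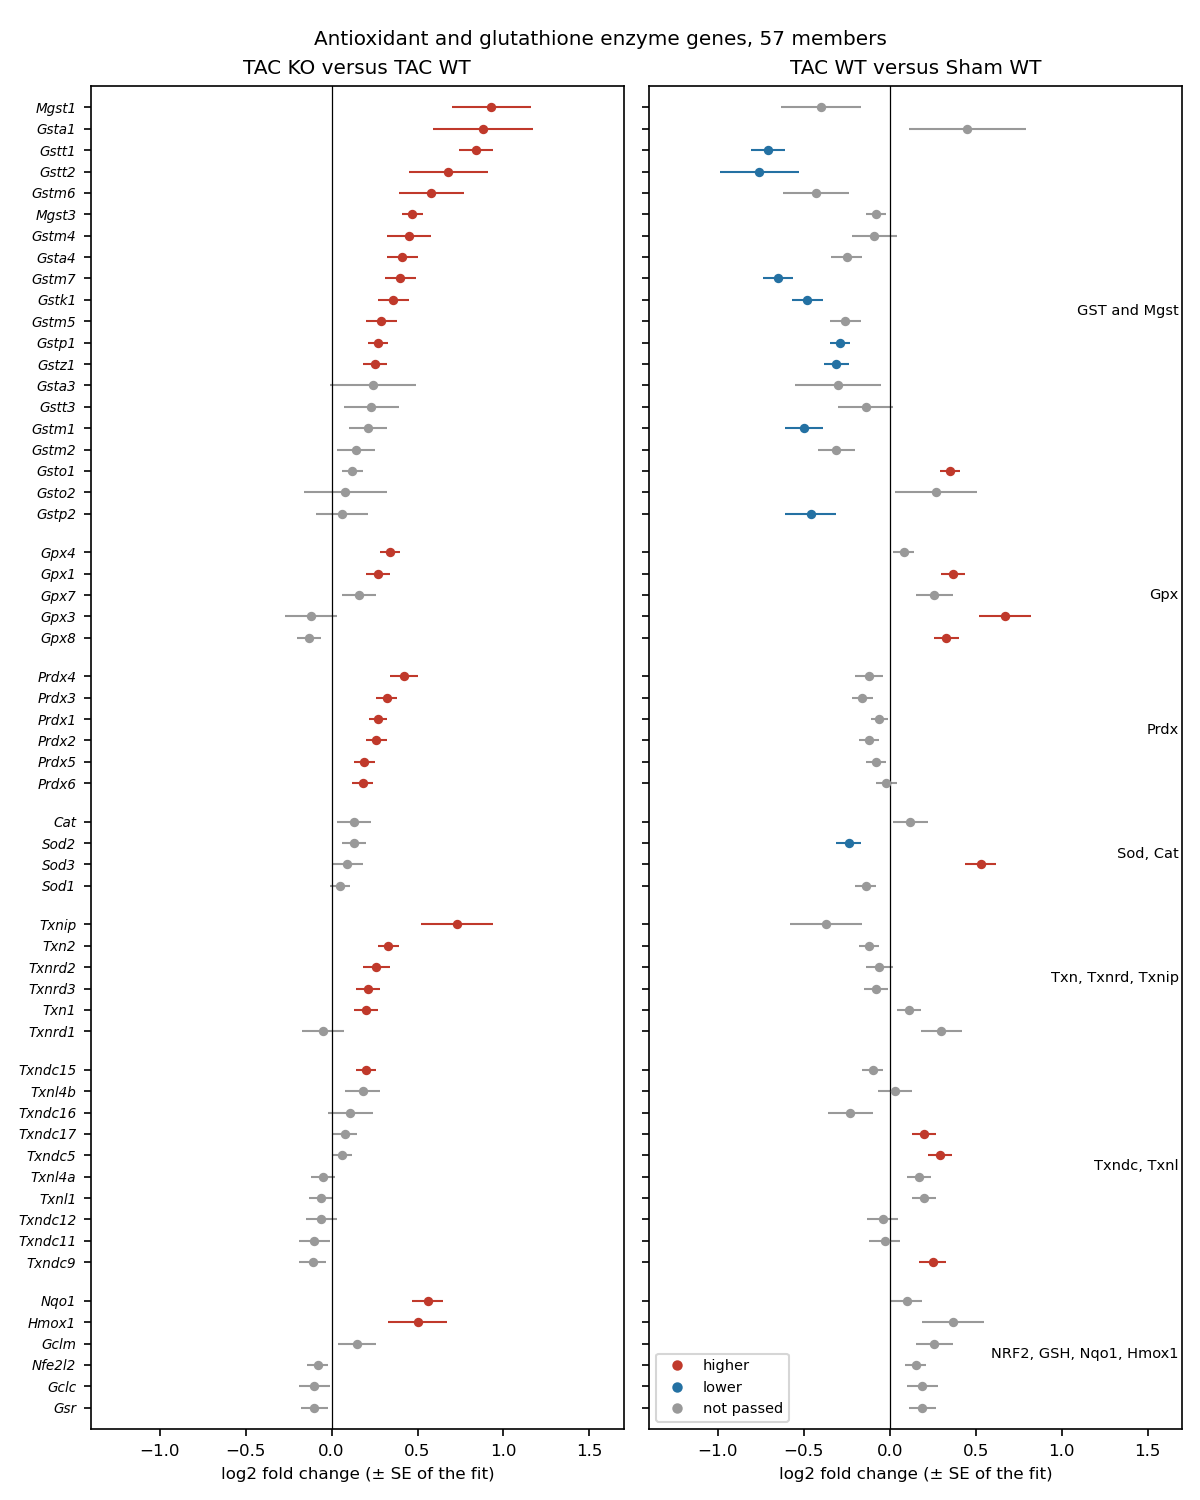
Log2 fold change of each of the 57 members, with the SE of the fit, in TAC KO versus TAC WT (left) and TAC WT versus Sham WT (right), grouped by role. Red points passed as higher, blue as lower and grey did not pass; on the left 29 points are red and 0 blue, and on the right 8 are red and 9 blue.

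The NRF2 transcript itself did not pass in any comparison before trend removal. After it, Nfe2l2 passed in TAC WT versus Sham WT alone, at 0.16 (SE 0.06, edgeR adjusted p = 0.0483). Nfe2l2 had 64.9, 70.0, 66.6 and 71.0 CPM in TAC KO, against 65.7, 69.3, 78.0 and 74.2 in TAC WT and 64.5, 65.7, 61.6 and 66.6 in Sham WT. The log2 difference was -0.08 (SE 0.06) between TAC KO and TAC WT, with an edgeR adjusted p of 0.378. NRF2 is regulated mainly through the stability of its protein, which RNA does not show.

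Nqo1, a quinone reductase and a widely used readout of NRF2, was higher in knockout hearts. Nqo1 (ENSMUSG00000003849, chr8:107388225-107403206 on the minus strand, GRCm38) had 61.1, 67.8, 65.1 and 70.1 CPM in TAC KO, against 52.1, 43.6, 37.4 and 46.3 in TAC WT and 40.1, 41.3, 45.1 and 41.4 in Sham WT. All 4 TAC KO libraries stood above all 8 wild-type libraries. The log2 fold change was 0.56 (SE 0.09, edgeR adjusted p = 0.000414) against TAC WT and 0.65 (SE 0.09, adjusted p = 0.000166) against Sham WT, and 0.10 (SE 0.09, adjusted p = 0.474) for TAC WT over Sham WT. Hmox1, which degrades heme, had 8.38, 9.42, 12.8 and 9.39 CPM in TAC KO, against 6.34, 5.39, 6.53 and 10.1 in TAC WT and 5.26, 5.99, 4.77 and 5.87 in Sham WT. TAC WT replicate 4 lay within the TAC KO range. Hmox1 passed against TAC WT by 0.50 (SE 0.17, edgeR adjusted p = 0.0381), but lost that call without any of TAC KO replicates 2, 3 and 4 or TAC WT replicates 1, 2 and 3, with differences of 0.36 to 0.53 and adjusted p from 0.0563 to 0.12. Trend removal ended it too, at 0.38 (adjusted p = 0.129). Against Sham WT it was 0.87 higher (SE 0.18, adjusted p = 0.00278), with no overlap.

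Gclc, Gclm and Gsr, of glutathione synthesis and recycling, did not pass between TAC KO and TAC WT. Gclm, the modifier subunit of glutamate-cysteine ligase, had 24.3, 32.5, 25.8 and 22.9 CPM in TAC KO, against 24.8, 26.0, 19.9 and 24.0 in TAC WT and 20.7, 20.3, 20.4 and 17.6 in Sham WT. It passed in TAC KO versus Sham WT alone among the 3 comparisons, by 0.41 (SE 0.11, edgeR adjusted p = 0.0122). After trend removal it also passed against TAC WT, by 0.37 (SE 0.10, adjusted p = 0.0161). Gclc, the catalytic subunit of that enzyme, had 13.4, 17.5, 17.4 and 16.1 CPM in TAC KO, against 17.5, 18.7, 17.5 and 15.4 in TAC WT and 15.4, 14.9, 16.3 and 14.0 in Sham WT. Glutathione reductase, Gsr, had 25.3, 23.8, 27.1 and 25.7 CPM in TAC KO, against 27.5, 29.1, 23.4 and 28.9 in TAC WT and 21.9, 24.6, 25.2 and 23.7 in Sham WT. The ranges of TAC KO and TAC WT overlapped for all 3 genes, and Gclc and Gsr were each at -0.10 between these groups (SE 0.09 and 0.08, adjusted p = 0.427 and 0.364 by edgeR).

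The motif TGACNNNGC is the core of the antioxidant response element. It was searched on both strands in the 250 bases before each RefSeq gene start (GRCm38.p6). Of the 57 members, 48 had such a window, and 11 of these (22.9%) held the motif, beside 3112 of 27025 genes (11.5%). The 27025 were all genes with a window, whether tested here or not. They were not matched to the members for expression, GC content or number of windows, and the difference in shares was not tested. Of the 11, 4 passed as higher in TAC KO over TAC WT, namely Prdx1, Mgst1, Gstm5 and Gstm7, where 25 of the 48 members with a window passed. The other carriers were Gclm, Gsta3, Nfe2l2, Sod1, Txndc11, Txndc5 and Txnrd1. The windows below are those of 3 carriers that passed, of the carrier Gclm that did not, and of Nqo1, which passed and held no match in this window. Each is written 5′ to 3′ on the strand of its gene, and capitals mark the motif. They come from chr4:116685349-116685598 (plus strand) for Prdx1, chr6:138140277-138140526 (plus) for Mgst1, chr3:107895604-107895853 (plus) for Gstm5, chr3:122245307-122245556 (plus) for Gclm and chr8:107403206-107403455 (minus) for Nqo1.
Prdx1: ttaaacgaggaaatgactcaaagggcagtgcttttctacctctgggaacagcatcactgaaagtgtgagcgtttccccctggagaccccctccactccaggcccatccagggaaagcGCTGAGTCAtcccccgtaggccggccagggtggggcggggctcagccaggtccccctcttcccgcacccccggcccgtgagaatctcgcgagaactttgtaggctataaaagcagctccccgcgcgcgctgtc
Mgst1: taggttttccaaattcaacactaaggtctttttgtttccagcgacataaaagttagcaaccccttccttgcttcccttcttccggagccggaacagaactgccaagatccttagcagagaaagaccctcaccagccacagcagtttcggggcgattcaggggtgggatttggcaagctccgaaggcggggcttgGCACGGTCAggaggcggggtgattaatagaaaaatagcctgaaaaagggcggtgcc
Gstm5: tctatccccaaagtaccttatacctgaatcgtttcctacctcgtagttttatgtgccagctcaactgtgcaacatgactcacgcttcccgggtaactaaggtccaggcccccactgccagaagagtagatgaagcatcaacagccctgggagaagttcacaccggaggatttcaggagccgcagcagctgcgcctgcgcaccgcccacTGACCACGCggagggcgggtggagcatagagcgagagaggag
Gclm: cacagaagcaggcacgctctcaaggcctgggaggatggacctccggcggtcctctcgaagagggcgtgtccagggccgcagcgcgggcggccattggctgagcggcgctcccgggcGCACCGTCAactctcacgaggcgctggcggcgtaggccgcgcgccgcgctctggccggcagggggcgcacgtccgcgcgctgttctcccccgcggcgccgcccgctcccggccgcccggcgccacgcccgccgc
Nqo1: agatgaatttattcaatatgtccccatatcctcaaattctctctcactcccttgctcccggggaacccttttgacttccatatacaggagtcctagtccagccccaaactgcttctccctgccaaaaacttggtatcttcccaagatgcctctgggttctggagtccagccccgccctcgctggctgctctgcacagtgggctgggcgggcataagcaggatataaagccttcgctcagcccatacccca
The match began 133 bases before the start in Prdx1, 56 in Mgst1, 42 in Gstm5 and 134 in Gclm. It reads on the gene's own strand in Gstm5 and on the opposite strand in the other 3. Mgst1 has a further start in the table, whose window held no match. A match is a run of letters and not evidence of binding. Gstt2, Hmox1, Prdx6, Gsr, Gclc, Sod3, Txnl1, Txnl4a and Gsta4 had no window in the table.

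Glutathione S-transferases were the largest family, with 20 members, and all 20 had a positive log2 fold change between TAC KO and TAC WT. Of these, 13 passed, by 0.25 to 0.93, and the median was 0.32. Gstt1, a theta-class enzyme that acts on small halogenated compounds and epoxides, had the smallest adjusted p of all 57 members. Gstt1 (ENSMUSG00000001663, chr10:75783813-75798584, minus strand) had 10.9, 9.55, 8.72 and 8.33 CPM in TAC KO, against 5.06, 5.26, 5.94 and 4.63 in TAC WT and 8.44, 8.94, 8.26 and 8.51 in Sham WT. The TAC WT libraries were low and the TAC KO and Sham WT libraries overlapped. The log2 fold change over TAC WT was 0.84 (SE 0.10, edgeR adjusted p = 8.84e-05). Its neighbour Gstt2 lies in the same theta cluster of 3 members, chr10:75774115-75837424. Gstt2 had 16.1, 6.65, 6.36 and 7.82 CPM in TAC KO, against 5.003, 6.22, 5.88 and 5.84 in TAC WT and 9.37, 9.71, 9.46 and 10.2 in Sham WT. Its fold change of 0.68 (SE 0.23, adjusted p = 0.0367) rested on TAC KO replicate 1, the library with the steepest GC trend. Without that library it was 0.28 with an adjusted p of 0.0537, and the call was also lost without TAC WT replicate 1, 3 or 4 (0.62 to 0.69, adjusted p 0.061 to 0.0944) and after trend removal (0.61, adjusted p = 0.0671). The third theta gene, Gstt3, was at 0.23 (SE 0.16) and did not pass.

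The microsomal enzymes are membrane proteins that reduce lipid hydroperoxides. Mgst3 (ENSMUSG00000026688, chr1:167371966-167393841, minus strand) had 224, 242, 238 and 245 CPM in TAC KO, against 160, 167, 193 and 164 in TAC WT and 182, 184, 179 and 180 in Sham WT. Its TAC KO libraries lay above all wild-type libraries, with a fold change of 0.47 over TAC WT (SE 0.06, edgeR adjusted p = 0.000172) and 0.39 over Sham WT (SE 0.06, adjusted p = 0.000658). Mgst1 had 44.1, 34.5, 48.0 and 33.1 CPM in TAC KO, against 16.8, 26.6, 26.1 and 14.3 in TAC WT and 16.1, 30.2, 32.5 and 32.3 in Sham WT. It had the largest fold change of the members over TAC WT, 0.93 (SE 0.23, adjusted p = 0.00708), and TAC KO did not overlap TAC WT. Against Sham WT it was at 0.52 (SE 0.22, adjusted p = 0.0972).

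Among the alpha class, Gsta4, which conjugates the lipid aldehyde 4-hydroxynonenal, had 68.0, 74.8, 66.5 and 63.6 CPM in TAC KO, against 45.8, 57.4, 57.9 and 43.5 in TAC WT and 62.0, 58.3, 62.6 and 59.9 in Sham WT. TAC KO lay above TAC WT in every library, by 0.41 (SE 0.09, edgeR adjusted p = 0.00333). Gsta1 was barely expressed, at 0.481, 0.611, 0.428 and 0.429 CPM in TAC KO, against 0.273, 0.277, 0.236 and 0.257 in TAC WT and 0.0892, 0.286, 0.229 and 0.147 in Sham WT. Its fold changes of 0.88 over TAC WT (SE 0.29, adjusted p = 0.0302) and 1.33 over Sham WT (SE 0.31, adjusted p = 0.00588) rest on few counts, and it reached 10 counts in 4 TAC KO, 1 TAC WT and 1 Sham WT libraries, so it entered through the group where it is high. It lost the call against TAC WT without TAC KO replicate 1 or 2 or TAC WT replicate 1, 3 or 4, at 0.76 to 0.91 with adjusted p from 0.0545 to 0.0848. The call was also lost with DESeq2 (0.90, adjusted p = 0.0928), limma voom (0.79, adjusted p = 0.0656), 1 surrogate variable and no low-count filter. Gsta1 also shares 96.7 to 99.5% of its sequence with Gm10639, Gsta2 and Gm3776 over the parts that align, so reads may have been split among them.

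The mu-class genes form a cluster of 6 members at chr3:107895821-108044894. All 6 were at positive values in TAC KO versus TAC WT and at negative values in TAC WT versus Sham WT. In the first of these comparisons Gstm4, Gstm5, Gstm6 and Gstm7 passed, by 0.29 to 0.58, and in the second Gstm1 and Gstm7 passed as lower. Gstm7 had 36.8, 30.6, 29.98 and 36.5 CPM in TAC KO, against 24.1, 27.8, 27.0 and 22.6 in TAC WT and 45.6, 39.4, 36.8 and 37.3 in Sham WT. The TAC WT libraries were below both other groups, with log2 fold changes of 0.40 for TAC KO over TAC WT (SE 0.09, edgeR adjusted p = 0.00606) and -0.65 for TAC WT over Sham WT (SE 0.09, adjusted p = 0.000322). Gstm1, the most abundant mu gene by CPM, had 159, 122, 116 and 126 CPM in TAC KO, against 98.9, 128, 127 and 97.1 in TAC WT and 149, 147, 170 and 171 in Sham WT. TAC WT was below Sham WT in every library, by -0.50 (SE 0.11, adjusted p = 0.00671), while TAC KO overlapped TAC WT (0.21, SE 0.11, adjusted p = 0.163). Gstm5 and Gstm6 were the less stable calls over TAC WT. Gstm5 lost its call without TAC KO replicate 1 or 4 or TAC WT replicate 1 or 4 (0.22 to 0.28, adjusted p 0.0509 to 0.0711), and Gstm6 without TAC KO replicate 1 or 4 or TAC WT replicate 2 or 3 (0.46 to 0.59, adjusted p 0.0532 to 0.0968). Gstm4, Gstm5 and Gstm6 no longer passed over TAC WT after trend removal, at 0.32, 0.20 and 0.48 (adjusted p = 0.0537, 0.0757 and 0.0818 by edgeR). The antisense transcript 4933431E20Rik overlaps Gstm5.

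The remaining classes were smaller. Gstk1, a kappa enzyme of mitochondria and peroxisomes, had 60.7, 51.9, 51.4 and 58.3 CPM in TAC KO, against 37.8, 45.5, 50.2 and 39.8 in TAC WT and 62.3, 60.3, 59.8 and 58.9 in Sham WT. It was lowest in TAC WT, with 0.36 for TAC KO over TAC WT (SE 0.09, edgeR adjusted p = 0.00605) and -0.48 for TAC WT over Sham WT (SE 0.09, adjusted p = 0.00144). Gstp1, the main pi-class enzyme, had 34.9, 31.3, 31.2 and 33.6 CPM in TAC KO, against 25.9, 26.7, 29.97 and 25.6 in TAC WT and 33.2, 31.8, 32.9 and 34.5 in Sham WT. Its differences were 0.27 for TAC KO over TAC WT (SE 0.06, adjusted p = 0.0056) and -0.29 for TAC WT over Sham WT (SE 0.06, adjusted p = 0.00591). Its difference over TAC WT was 0.11 (SE 0.05, adjusted p = 0.141) after trend removal. The adjacent Gstp2 is 98.7 to 99.5% identical over the aligned parts, so reads of the pair cannot be told apart with certainty. Gstz1, the zeta enzyme of tyrosine breakdown, had 35.7, 38.0, 31.3 and 37.1 CPM in TAC KO, against 29.2, 31.5, 30.5 and 28.0 in TAC WT and 35.7, 37.7, 36.9 and 37.4 in Sham WT. TAC KO was higher than TAC WT by 0.25 (SE 0.07, adjusted p = 0.00995), with TAC KO replicate 3 just inside the TAC WT range, and TAC WT was at -0.31 to Sham WT (SE 0.07, adjusted p = 0.0047). Gsto1, an omega enzyme that acts as a thiol transferase, was the only transferase higher in TAC WT than in Sham WT. Gsto1 had 143, 160, 145 and 153 CPM in TAC KO, against 141, 132, 135 and 146 in TAC WT and 114, 106, 105 and 108 in Sham WT. Both TAC groups stood above sham, by 0.47 for TAC KO (SE 0.06, adjusted p = 0.000101) and 0.35 for TAC WT (SE 0.06, adjusted p = 0.000783), while TAC KO and TAC WT overlapped. The gene span of Gsto1 lies within Cfap43 on the opposite strand.

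**Figure D2:**
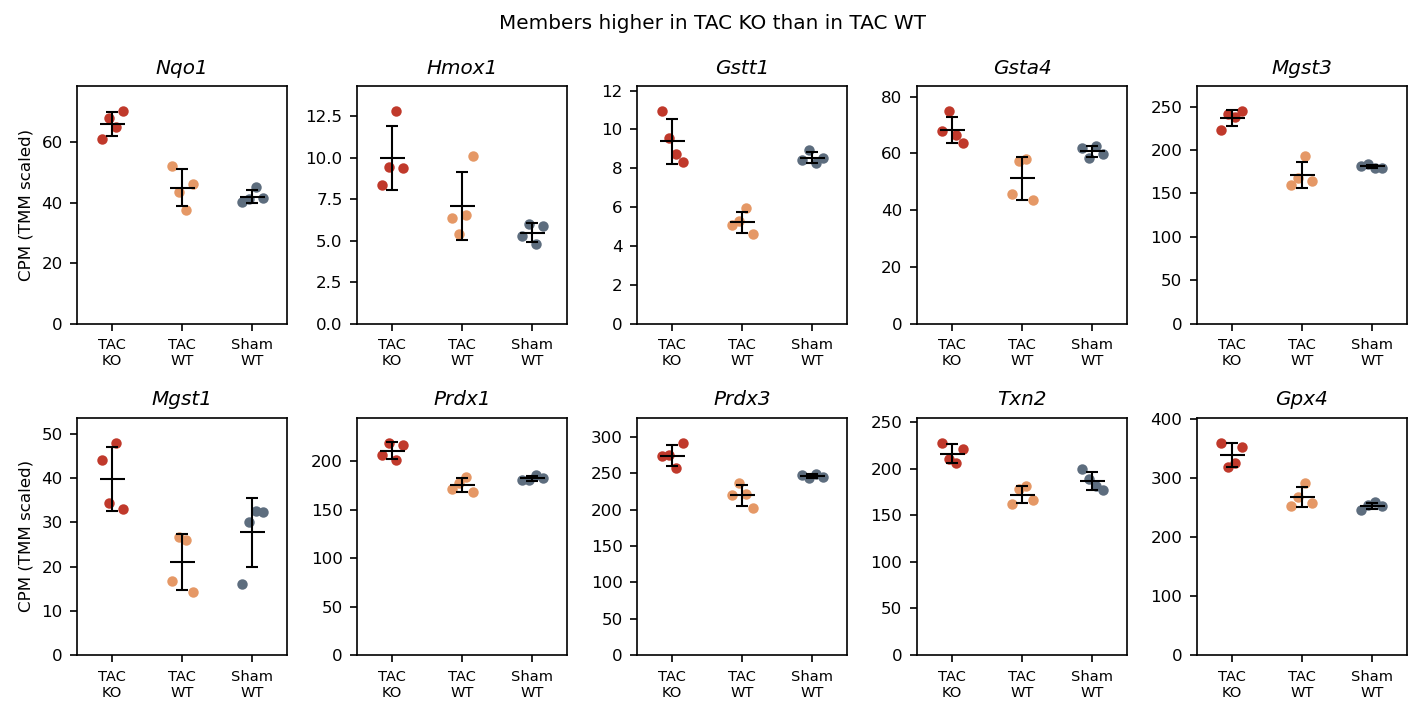
CPM of 10 members in each library, with mean and SD (n = 4), in TAC KO, TAC WT and Sham WT. In all panels except Hmox1 the 4 TAC KO points lie above the 4 TAC WT points.

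All 6 peroxiredoxins were higher in TAC KO than in TAC WT, by 0.18 to 0.42. After trend removal 4 of the 6 passed, while Prdx5 was at 0.03 (SE 0.05, edgeR adjusted p = 0.756) and Prdx6 at 0.14 (SE 0.05, adjusted p = 0.0761). Prdx3, the mitochondrial peroxiredoxin, had 274, 275, 258 and 292 CPM in TAC KO, against 220, 236, 221 and 202 in TAC WT and 248, 243, 250 and 245 in Sham WT. Every TAC KO library exceeded every wild-type library, and the difference from TAC WT was 0.32 (SE 0.06, edgeR adjusted p = 0.00133). Prdx4, which works in the endoplasmic reticulum, had 15.6, 14.4, 14.5 and 14.7 CPM in TAC KO, against 11.2, 10.4, 11.2 and 11.6 in TAC WT and 13.4, 10.9, 11.3 and 12.8 in Sham WT. It was 0.42 higher than in TAC WT (SE 0.08, adjusted p = 0.00144) and 0.29 higher than in Sham WT (SE 0.08, adjusted p = 0.0134). Prdx1 of the cytosol had 207, 219, 202 and 217 CPM in TAC KO, against 171, 178, 184 and 168 in TAC WT and 180, 181, 186 and 182 in Sham WT. It was above every wild-type library, by 0.27 over TAC WT (SE 0.05, adjusted p = 0.00189) and 0.21 over Sham WT (SE 0.05, adjusted p = 0.00959).

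Prdx2, also cytosolic, had 323, 306, 294 and 328 CPM in TAC KO, against 245, 266, 273 and 260 in TAC WT and 295, 273, 285 and 281 in Sham WT. TAC KO and TAC WT were separated by 0.26 (SE 0.06, edgeR adjusted p = 0.00386), and Junb overlaps the end of Prdx2 on the opposite strand. Prdx5 had 395, 374, 363 and 408 CPM in TAC KO, against 318, 338, 359 and 337 in TAC WT and 368, 353, 362 and 347 in Sham WT, a difference of 0.19 from TAC WT (SE 0.06, adjusted p = 0.0231). Prdx6, which uses glutathione in place of thioredoxin, had 225, 215, 193 and 206 CPM in TAC KO, against 178, 194, 187 and 179 in TAC WT and 187, 193, 185 and 186 in Sham WT, a difference of 0.18 (SE 0.06, adjusted p = 0.0279). These last 2 were the smallest differences of the family. Prdx5 lost its call without TAC KO replicate 4 or TAC WT replicate 1 (0.16 each, adjusted p 0.0717 and 0.0722), and Prdx6 without TAC KO replicate 1 or 2 or TAC WT replicate 1 or 4 (0.15 to 0.17, adjusted p 0.0609 to 0.0747). No peroxiredoxin passed between TAC WT and Sham WT, where all 6 lay between -0.16 and -0.02.

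In the thioredoxin system, the mitochondrial thioredoxin Txn2 had 228, 211, 206 and 222 CPM in TAC KO, against 162, 178, 182 and 167 in TAC WT and 200, 189, 182 and 177 in Sham WT. Its TAC KO libraries were above all wild-type libraries, by 0.33 over TAC WT (SE 0.06, edgeR adjusted p = 0.00129) and 0.21 over Sham WT (SE 0.06, adjusted p = 0.02). The second of these was lost without Sham WT replicate 3 or 4 (0.20 and 0.19, adjusted p 0.0595 and 0.0667). The cytosolic thioredoxin Txn1 had 67.6, 67.1, 75.1 and 72.0 CPM in TAC KO, against 59.5, 55.3, 62.0 and 68.0 in TAC WT and 60.2, 53.3, 58.3 and 54.7 in Sham WT. It was 0.20 above TAC WT (SE 0.07, adjusted p = 0.0381), with an overlap at TAC WT replicate 4, and 0.32 above Sham WT (SE 0.07, adjusted p = 0.00496). Against TAC WT the call was lost without TAC KO replicate 3 or 4 or TAC WT replicate 1, 2 or 3 (0.16 to 0.21, adjusted p 0.0554 to 0.0998) and after trend removal (0.14, adjusted p = 0.129).

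Of the 3 reductases Txnrd2 and Txnrd3 passed and Txnrd1 did not, and the difference between them was not tested. Txnrd2, the mitochondrial form, had 25.5, 23.7, 20.2 and 23.8 CPM in TAC KO, against 18.6, 20.3, 19.8 and 19.1 in TAC WT and 21.1, 20.4, 21.2 and 18.3 in Sham WT. Its fold change over TAC WT was 0.26 (SE 0.08, edgeR adjusted p = 0.0176) and fell short without TAC KO replicate 1 or TAC WT replicate 1 (0.21 and 0.24, adjusted p 0.0531 and 0.052). Txnrd1, the cytosolic form and an NRF2 target, had 65.9, 65.8, 89.2 and 83.0 CPM in TAC KO, against 87.3, 84.0, 59.7 and 83.8 in TAC WT and 63.7, 63.7, 68.2 and 60.1 in Sham WT. The TAC groups overlapped widely, with a difference of -0.05 (SE 0.12, adjusted p = 0.78). Txnrd3 was 0.21 higher in TAC KO than in TAC WT (SE 0.07, adjusted p = 0.043), a call that was lost without any of 7 of the 8 libraries compared, the exception being TAC KO replicate 3, with adjusted p from 0.0513 to 0.143. Txnrd2 and Txnrd3 were at 0.16 and 0.14 after trend removal and neither passed (adjusted p = 0.117 and 0.158). Txnip, which binds and inhibits thioredoxin and restrains glucose uptake, had 633, 387, 663 and 404 CPM in TAC KO, against 430, 319, 305 and 202 in TAC WT and 425, 485, 357 and 359 in Sham WT. Its libraries spread widely within each group and TAC KO overlapped TAC WT. Txnip was 0.73 above TAC WT (SE 0.21, adjusted p = 0.017). Without TAC KO replicate 1 this was 0.63 with an adjusted p of 0.0577, and with limma voom it was 0.57 (adjusted p = 0.0673).

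Of the 5 glutathione peroxidases, Gpx1 and Gpx4 were higher in TAC KO than in TAC WT. Gpx4, which removes lipid peroxides from membranes and thereby holds back ferroptosis, had 359, 318, 325 and 352 CPM in TAC KO, against 253, 268, 291 and 258 in TAC WT and 245, 254, 258 and 252 in Sham WT. All TAC KO libraries were above all wild-type libraries, with differences of 0.34 over TAC WT (SE 0.06, edgeR adjusted p = 0.00111) and 0.42 over Sham WT (SE 0.06, adjusted p = 0.00031). Trend removal ended the Gpx4 call over TAC WT, at 0.14 (SE 0.05, adjusted p = 0.0606), and that over Sham WT was 0.23 (SE 0.05, adjusted p = 0.00733). Gpx4 has a transcribed pseudogene, Gpx4-ps2, that is 99.7% identical over the aligned part and had 3252 counts beside 111878 for Gpx4. Gpx1, the abundant cytosolic and mitochondrial form, had 82.5, 76.7, 77.7 and 77.9 CPM in TAC KO, against 65.4, 58.2, 68.3 and 69.7 in TAC WT and 48.1, 49.4, 55.3 and 49.95 in Sham WT. The 3 groups did not overlap. Gpx1 passed as higher in all 3 comparisons and was alone among the members in this, at 0.27 for TAC KO over TAC WT (SE 0.07, adjusted p = 0.00759), 0.37 for TAC WT over Sham WT (SE 0.07, adjusted p = 0.00156) and 0.63 for TAC KO over Sham WT (SE 0.07, adjusted p = 4.66e-05). After trend removal the difference between TAC KO and TAC WT was 0.09 (SE 0.06, adjusted p = 0.266), and Gpx1 passed in the other 2 comparisons.

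The secreted and endoplasmic reticulum forms behaved otherwise. Gpx3, a secreted peroxidase, had 237, 216, 246 and 162 CPM in TAC KO, against 299.97, 197, 184 and 252 in TAC WT and 149, 166, 145 and 126 in Sham WT. TAC KO and TAC WT overlapped (-0.12, SE 0.15, edgeR adjusted p = 0.593), and TAC WT was 0.67 above Sham WT (SE 0.15, adjusted p = 0.00694), the largest rise of a member with surgery in wild-type hearts. TAC KO was 0.55 above Sham WT (SE 0.15, adjusted p = 0.0158), or 0.49 with an adjusted p of 0.0536 without Sham WT replicate 4. Gpx8, of the endoplasmic reticulum, had 19.0, 22.9, 23.0 and 22.1 CPM in TAC KO, against 23.5, 23.2, 23.2 and 25.6 in TAC WT and 19.4, 17.5, 19.5 and 19.5 in Sham WT. TAC WT was 0.33 above Sham WT (SE 0.07, adjusted p = 0.00526), and TAC KO was at -0.13 to TAC WT (SE 0.07, adjusted p = 0.172). Gpx7, its nearest relative, passed in TAC KO versus Sham WT only among the 3 comparisons, at 0.42 (SE 0.10, adjusted p = 0.00898). Gpx7 had 8.14, 7.55, 6.21 and 7.50 CPM in TAC KO, against 7.11, 5.97, 6.14 and 7.02 in TAC WT and 5.71, 5.24, 5.94 and 4.99 in Sham WT, so TAC KO lay above sham without overlap.

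Superoxide dismutases and catalase formed the family without a call between TAC KO and TAC WT, at 0.05 to 0.13. Sod2 did pass there after trend removal, at 0.35 (SE 0.08, edgeR adjusted p = 0.00436). Sod2, the mitochondrial manganese enzyme, had 506, 519, 498 and 541 CPM in TAC KO, against 457, 520, 472 and 438 in TAC WT and 625, 540, 533 and 538 in Sham WT. TAC WT was below Sham WT in every library, by -0.24 (SE 0.07, edgeR adjusted p = 0.0243), and lost the call without TAC WT replicate 1 or 4 or Sham WT replicate 1 (-0.23 to -0.18, adjusted p 0.0687 to 0.0821). Sod1, the cytosolic copper and zinc enzyme, had 171, 174, 173 and 183 CPM in TAC KO, against 157, 168, 185 and 169 in TAC WT and 173, 200, 192 and 180 in Sham WT, and did not pass in any comparison. Sod3, the extracellular form, had 71.3, 62.7, 66.1 and 54.6 CPM in TAC KO, against 57.1, 60.9, 60.2 and 60.6 in TAC WT and 36.2, 46.6, 42.5 and 39.7 in Sham WT. Both TAC groups were above every sham library, by 0.62 for TAC KO (SE 0.09, adjusted p = 0.000217) and 0.53 for TAC WT (SE 0.09, adjusted p = 0.000717), and they overlapped each other. Catalase, Cat, had 274, 260, 243 and 248 CPM in TAC KO, against 231, 286, 208 and 214 in TAC WT and 193, 242, 210 and 221 in Sham WT, with no call in any comparison. TAC KO overlapped TAC WT and lay just above the sham libraries.

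Of the 10 thioredoxin-domain proteins, Txndc15 was the only call between TAC KO and TAC WT, where 15.7% of all tested genes were higher. Txndc15 was at 0.20 there (SE 0.06, edgeR adjusted p = 0.015). It had 40.2, 38.3, 40.6 and 43.8 CPM in TAC KO, against 34.0, 37.0, 36.4 and 34.2 in TAC WT and 36.9, 38.9, 38.4 and 37.9 in Sham WT. Against Sham WT, 3 of the 10 were higher in TAC WT, where 9.67% of all tested genes were higher. Txndc5, a disulfide isomerase of the endoplasmic reticulum, had 60.3, 58.0, 57.5 and 58.2 CPM in TAC KO, against 57.4, 49.3, 54.9 and 62.3 in TAC WT and 45.9, 46.7, 45.0 and 45.6 in Sham WT. TAC WT was 0.29 above sham without overlap (SE 0.07, adjusted p = 0.00616), and TAC KO 0.35 above it (SE 0.06, adjusted p = 0.00149). Txndc9 and Txndc17 were 0.25 and 0.20 higher in TAC WT than in Sham WT (SE 0.08 and 0.07, adjusted p = 0.0342 and 0.0463). Txndc17 had 35.8, 39.5, 38.0 and 37.0 CPM in TAC KO, against 32.2, 34.5, 40.1 and 35.3 in TAC WT and 29.5, 31.0, 31.7 and 31.1 in Sham WT, and TAC KO was 0.29 above sham (SE 0.07, adjusted p = 0.00676). Txndc9 lost its call without TAC WT replicate 2 or 3 or any of the 4 Sham WT libraries (0.20 to 0.26, adjusted p 0.0544 to 0.0854), and Txndc17 without TAC WT replicate 3 or 4 or any Sham WT library (0.14 to 0.22, adjusted p 0.0726 to 0.122). Txndc17 was also lost with limma voom (0.15, adjusted p = 0.0768), upper-quartile scaling, no low-count filter, the compared groups alone and 1 surrogate variable.

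Pressure load in wild-type hearts, taken over all members, moved some up and others down. Between TAC WT and Sham WT, 8 members (14.0%) were higher and 9 (15.8%) lower, where 9.67% of all tested genes were higher and 10% lower (19.7% in either direction), and the median over the members was -0.06. The higher members were Gpx1, Gpx3, Gpx8, Gsto1, Sod3, Txndc5, Txndc9 and Txndc17. The lower members were Sod2 and 8 glutathione S-transferases, namely Gstk1, Gstm1, Gstm7, Gstp1, Gstp2, Gstt1, Gstt2 and Gstz1. Among the 20 transferases 17 were at negative values, with a median of -0.31. The lowest were Gstt2 at -0.76 (SE 0.23, edgeR adjusted p = 0.0332), Gstt1 at -0.71 (SE 0.10, adjusted p = 0.000299) and Gstm7. Gstt2 lost this call without TAC WT replicate 1, 3 or 4 or any Sham WT library (-0.77 to -0.69, adjusted p 0.0596 to 0.0923), and Gstp2 without TAC WT replicate 1, 2 or 4 or any Sham WT library (-0.48 to -0.37, adjusted p 0.0547 to 0.104). Libraries did not overlap for 11 members higher and 14 lower in TAC WT (12% and 12.7% of all tested genes). Past 1.5-fold as well, 4 members were called, a share near the 8.06% of all tested genes. With limma voom 14 members were lower, where 14.2% of all tested genes were lower and 13.5% higher.

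**Figure D3:**
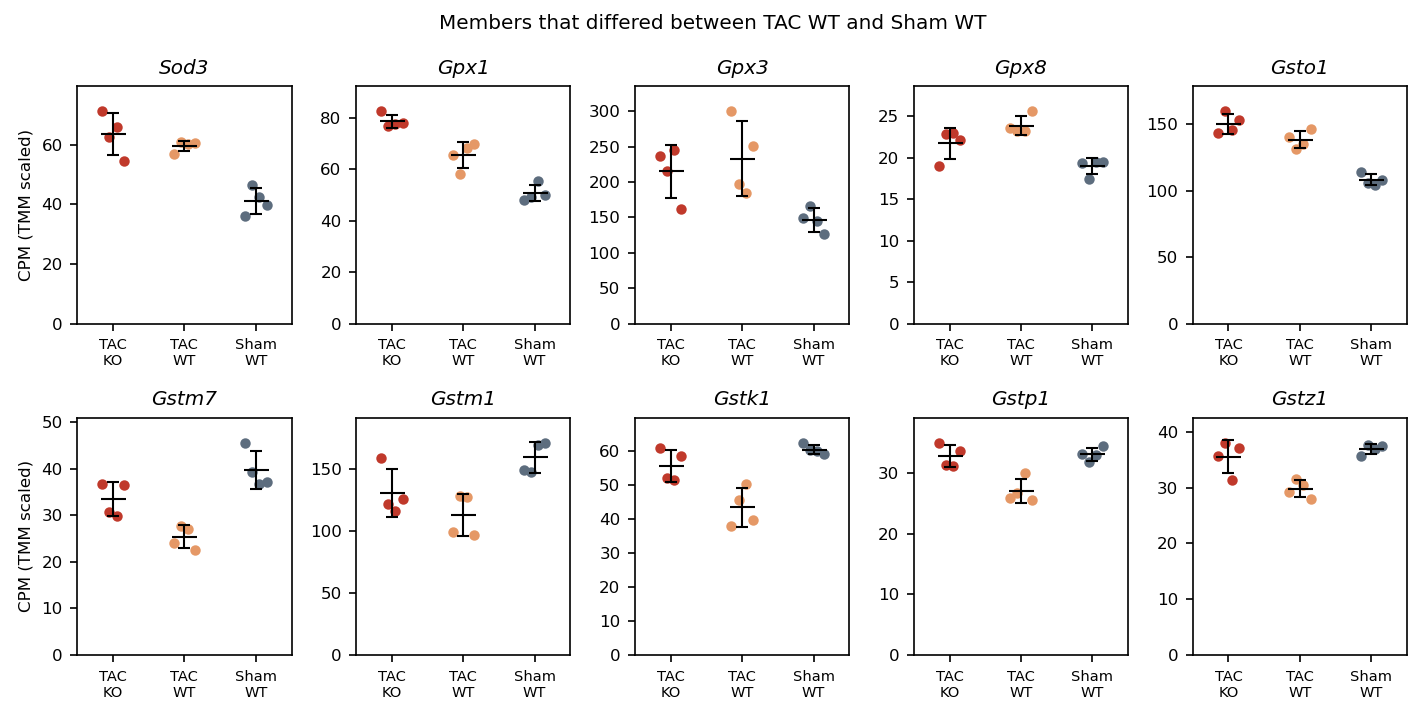
CPM of 10 members that passed between TAC WT and Sham WT in each library, with mean and SD (n = 4), in TAC KO, TAC WT and Sham WT. In the upper row TAC WT lies above Sham WT and in the lower row below it.

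Against sham hearts, knockout hearts under load had 18 members higher (31.6%) and 0 lower, where 12.8% of all tested genes were higher and 14.8% lower (27.6% in either direction), and a median of 0.16. Past 1.5-fold as well, 5 members were higher, a share near the 7.57% of all tested genes that passed in either direction. At an unadjusted p under 0.05, 25 members were higher and 3 lower, but the shares of all tested genes at that threshold were not counted. The adjusted count of lower members was 0 with DESeq2, 2 with limma voom, 2 with 1 surrogate variable, 4 without TAC KO replicate 1, 5 after trend removal and 6 with both changes. Over all genes tested by each, DESeq2 called 13% higher and 13.6% lower, voom 15.6% and 18%, and the fit with the surrogate variable 14.4% and 16.3%. Among the glutathione S-transferases 4 passed as higher, Gsta1, Gsto1, Mgst3 and Gstm4, and the median of that family was 0.06. The Gstm4 call, 0.36 (SE 0.13, edgeR adjusted p = 0.0488), was lost without TAC KO replicate 1 or 2 or Sham WT replicate 2, 3 or 4 (0.25 to 0.38, adjusted p 0.0717 to 0.129). Libraries did not overlap for 20 members higher in TAC KO than in Sham WT (14.3% of all tested genes) and for 2 lower, Gstm7 and Gstp2 (16.3%).

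The 3 comparisons share libraries, since TAC WT enters the first 2 with opposite sign, so a gene low in TAC WT by sampling alone is pushed up in the first and down in the second. For single members the values stand side by side as follows. Gstt1 was at 0.84 for TAC KO over TAC WT, -0.71 for TAC WT over Sham WT and 0.13 (SE 0.10, edgeR adjusted p = 0.336) for TAC KO over Sham WT. Gstk1 was at 0.36, -0.48 and -0.12 in that order (adjusted p = 0.32 for TAC KO over Sham WT), Gstp1 at 0.27, -0.29 and -0.02 (adjusted p = 0.888), and Gstz1 at 0.25, -0.31 and -0.05 (adjusted p = 0.569). After trend removal TAC KO was lower than Sham WT for Gstk1, at -0.22 (SE 0.07, adjusted p = 0.0487), and for Gstp1, at -0.18 (SE 0.05, adjusted p = 0.0266). Sod3 was at 0.09, 0.53 and 0.62, and Gsto1 at 0.12, 0.35 and 0.47. Mgst3 was at 0.47, -0.08 and 0.39, and Gpx4 at 0.34, 0.08 and 0.42.

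**Figure D4:**
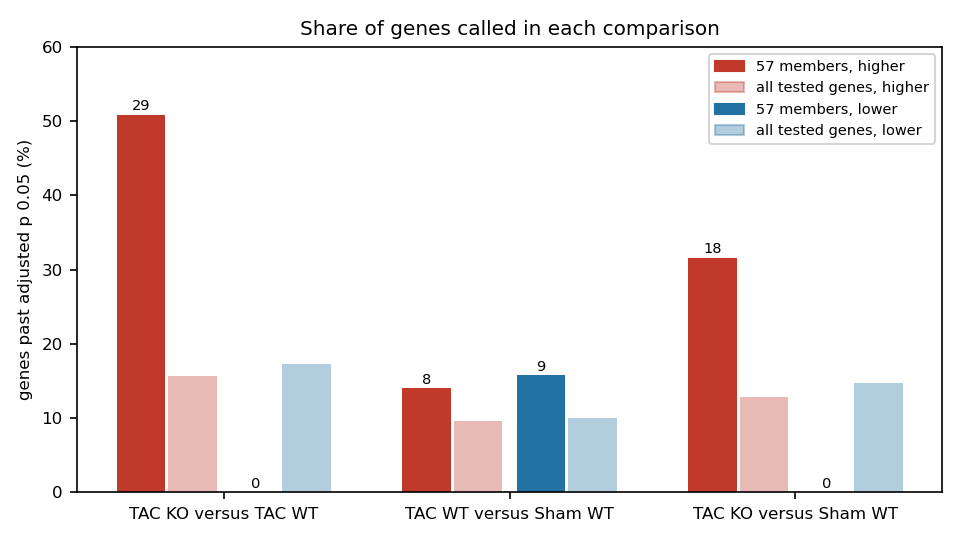
Percentage of the 57 members (solid bars, with their number above) and of all 15477 tested genes (pale bars) that passed as higher or lower in each comparison. In TAC KO versus TAC WT 50.9% of members were higher beside 15.7% of all tested genes.

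Scaled by gene length, the most abundant members in TAC KO were Mgst3, Gpx4, Prdx3 and Prdx5. Mgst3 averaged 216 ± 8.57 CPM per kilobase in TAC KO, 156 ± 13.5 in TAC WT and 165 ± 1.87 in Sham WT (SD, n = 4 each). Gpx4 averaged 196 ± 11.6, Prdx3 186 ± 9.49 and Prdx5 180 ± 9.42 CPM per kilobase in TAC KO. Differences between genes were not tested. In both wild-type groups Prdx5 had the highest mean, at 158 ± 7.95 in TAC WT and 167 ± 4.17 in Sham WT. Other members were close to it there, namely Mgst3 in both groups, Gpx4 at 155 ± 9.80 in TAC WT and Prdx3 at 167 ± 1.97 in Sham WT. At the other end were Gsta1 with 0.510 ± 0.0900 and Gsto2 with 0.535 ± 0.195 CPM per kilobase in TAC KO. Lengths are the merged exons of each gene.

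The members are short genes, and this touches the comparison with TAC KO. Their median transcript was 1707 bases, beside 3194 for all tested genes, and 50.9% of them fell in the shortest 20% of genes. The 29 members higher in TAC KO than in TAC WT had a median of 1478 bases, with 65.5% in the shortest 20%. The 28 members that did not pass there had a median of 2643 bases, with 35.7% in the shortest 20%. When each library's trends with GC content and length were removed, 19 members were higher in TAC KO than in TAC WT and 0 lower, where 13.7% of all tested genes were higher and 12.3% lower, and the median over the members was 0.14. Of these 19, 16 had passed before. Gpx1, Gpx4, Gstm4, Gstm5, Gstm6, Gstp1, Gstt2, Hmox1, Prdx5, Prdx6, Txn1, Txnrd2 and Txnrd3 no longer passed, with log2 fold changes of 0.03 for Prdx5 to 0.61 for Gstt2, and Gpx4 at 0.14 with an adjusted p of 0.0606. Gclm, Sod2 and Txnl1 passed only after the removal. Without TAC KO replicate 1 as well, 13 members were higher, where 9.92% of all tested genes were higher and 9.02% lower. Nqo1 was at 0.50 after removal (SE 0.09, edgeR adjusted p = 0.00157), Gstt1 at 0.68 (SE 0.09, adjusted p = 0.000225), Mgst3 at 0.37 (SE 0.05, adjusted p = 0.000381), Prdx1 at 0.32 (SE 0.05, adjusted p = 0.00058) and Prdx3 at 0.29 (SE 0.06, adjusted p = 0.00288). Gsta4, Gstt1, Gstz1, Mgst1, Mgst3, Nqo1, Prdx1, Prdx3, Prdx4 and Txn2 passed in all 18 alternative settings tried beside the 1.5-fold minimum.

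In TAC WT versus Sham WT, where 10.6% of all tested genes were higher and 11.3% lower after the removal, all 17 calls passed again, and Gsta4, Gstm2, Gstm5, Nfe2l2 and Txnl1 joined them. In TAC KO versus Sham WT the removal left 16 members higher and brought 5 lower, Gstk1, Gstm1, Gstm7, Gstp1 and Gstp2, at -0.56 to -0.18 (edgeR adjusted p from 0.00732 to 0.0487). Gpx3, Gpx7, Gstm4 and Txn2 no longer passed there. All tested genes were called higher in 10.9% and lower in 10.2% of cases after the removal. Without TAC KO replicate 1 as well, 6 members were lower, where 8.77% of all tested genes were lower and 9.48% higher.

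**Figure D5:**
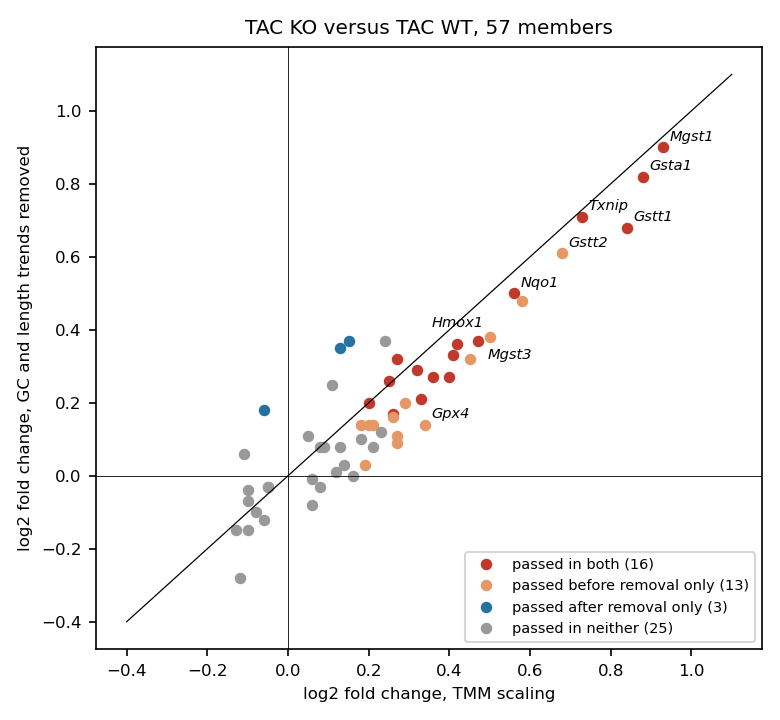
Log2 fold change of the 57 members in TAC KO versus TAC WT with TMM scaling (x axis) and after each library's GC and length trends were removed (y axis), with the line of equality. Most points past 0.2 on the x axis lie below the line; 16 members passed in both, 13 only before removal, 3 only after it and 25 in neither.

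Markers of other cell types also moved with genotype, in a comparison where 15.7% of all tested genes were higher and 17.3% lower in TAC KO than in TAC WT. In bulk tissue fewer cells of a type and less RNA per cell cannot be told apart. Of 8 macrophage markers 5 were higher in TAC KO than in TAC WT, among them Cd68 and C1qb, and 0 lower. Their summed level was 199 to 252 CPM in TAC KO, against 131 to 181 in TAC WT and 151 to 168 in Sham WT, without overlap. Of 8 endothelial markers 3 were lower in TAC KO than in TAC WT, namely Kdr, Tek and Flt1, with sums of 1184 to 1336 CPM in TAC KO, 1434 to 1767 in TAC WT and 1355 to 1609 in Sham WT. Of 8 fibroblast markers 3 were higher (sums of 1912 to 2311 CPM in TAC KO, 1598 to 1959 in TAC WT and 1495 to 1729 in Sham WT), and of 8 smooth muscle and pericyte markers 4 were higher and 1 lower (1013 to 1160, 1039 to 1399 and 1131 to 1270 CPM in TAC KO, TAC WT and Sham WT). Of 8 cardiomyocyte markers 2 were higher in TAC KO than in TAC WT, Tnni3 and Pln. In TAC WT 3 were lower than in Sham WT, Myh6, Tnni3 and Pln, where 10% of all tested genes were lower. Erythroid and adipocyte sums overlapped between all groups, at 322 to 703 CPM and 487 to 704 CPM over the 12 libraries. Of 7 adipocyte markers 3 were testable and 0 were called. Their median log2 fold change was 0.72 for TAC KO over TAC WT and 0.51 for TAC KO over Sham WT. The 5 liver markers, from an organ rich in many of these transferases, summed to at most 1.32 CPM in any library, with Serpina1a at 0. The part of the markers in the members' differences was not tested.

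Genes of the same pathways outside the symbol rule were tested in the same fit. The shares to set beside their counts are 15.7% of all tested genes higher and 17.3% lower in TAC KO versus TAC WT, and 9.67% higher and 10% lower in TAC WT versus Sham WT. Of 10 NRF2 partners and regulators, 0 were higher and 5 lower in TAC KO than in TAC WT. They were the small MAF genes Mafg (TAC KO 59.0 ± 2.81 CPM, TAC WT 82.1 ± 1.49 CPM, -0.48, edgeR adjusted p = 4.91e-05), Mafk (TAC KO 59.3 ± 4.01 CPM, TAC WT 99.8 ± 13.9 CPM, -0.75, adjusted p = 6.19e-05) and Maff (-0.67, adjusted p = 0.00798), with Nfe2l1 (-0.28) and the repressor Bach1 (-0.26). Between TAC WT and Sham WT 4 of the 10 were higher, Mafk by 1.02, Maff by 1.04, Mafg by 0.37 and Sqstm1 by 0.40. Of 16 NRF2 targets outside the rule, 6 were higher and 1 lower in TAC KO than in TAC WT. They include the ferritin subunits Fth1 (0.29, SE 0.06, adjusted p = 0.00243) and Ftl1 (0.31, SE 0.08, adjusted p = 0.00898), the aldose reductase Akr1b3 (0.42, SE 0.07, adjusted p = 0.000605) and Taldo1 of the pentose phosphate pathway (0.27, SE 0.06, adjusted p = 0.00378). Sulfiredoxin, Srxn1, which repairs overoxidised peroxiredoxins, was 0.61 higher in TAC WT than in Sham WT (SE 0.09, adjusted p = 0.000317) and was not called between TAC KO and TAC WT.

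Of 17 other genes of glutathione synthesis, turnover and export, 7 were higher and 1 lower in TAC KO than in TAC WT, beside the same shares of all tested genes. Oplah, which recycles oxoproline to glutamate, averaged 75.2 ± 10.9 CPM in TAC KO, 49.4 ± 5.30 in TAC WT and 65.7 ± 5.32 in Sham WT (SD, n = 4 each). It was 0.61 higher in TAC KO than in TAC WT (SE 0.10, edgeR adjusted p = 0.000681) and at -0.41 in TAC WT over Sham WT (SE 0.10, adjusted p = 0.0108). Slc25a39, which carries glutathione into mitochondria, was 0.34 higher in TAC KO than in TAC WT (SE 0.06, adjusted p = 0.00119), and Hagh was 0.31 higher (SE 0.07, adjusted p = 0.00307). Of 9 glutaredoxins, sulfiredoxin and methionine sulfoxide reductases, 3 were higher (Glrx by 0.52, Msrb2 by 0.52 and Glrx5 by 0.30) and Msrb3 was lower (-0.43).

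NADPH feeds both systems. Of 15 genes of NADPH supply, 7 were higher and 0 lower in TAC KO than in TAC WT (15.7% and 17.3% of all tested genes), and 2 were higher and 7 lower in TAC WT than in Sham WT (9.67% and 10%). Idh2, the mitochondrial NADP-dependent isocitrate dehydrogenase, averaged 2030 ± 143 CPM in TAC KO, 1337 ± 116 in TAC WT and 1752 ± 50.2 in Sham WT (SD, n = 4 each). Its differences were 0.60 for TAC KO over TAC WT (SE 0.07, edgeR adjusted p = 8.84e-05) and -0.39 for TAC WT over Sham WT (SE 0.07, adjusted p = 0.00195). The cytosolic Idh1 was 0.62 higher in TAC KO than in TAC WT (SE 0.08, adjusted p = 0.000185), Me3 0.46 higher (SE 0.07, adjusted p = 0.00028) and Shmt2 0.38 higher (SE 0.06, adjusted p = 0.00037). The genes outside the symbol rule were not examined under the alternative settings.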

How the data were processed

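The authors deposited raw counts per gene, 1 file per library. The submitters' processing notes name bcl2fastq, STAR, featureCounts 1.6.4, Trim Galore 0.5.0, FastQC 0.11.8, MultiQC 1.7, StringTie 1.3.5, DESeq2 and the build GRCm38. The annotation release and the strand setting of the counting are not given in the sources used here, so overlapping genes on opposite strands may share counts. Per the labels' protocols, 250 ng of RNA was enriched for polyadenylated RNA and made into strand-specific libraries. Replicates were numbered in accession order. Symbols, lengths and coordinates come from the GENCODE M21 annotation, which named 54079 of 54146 records, and 67 had no symbol.

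Counts were tested in R 4.3.3 with edgeR 4.0.16 (TMM, filterByExpr, quasi-likelihood F-test), in 1 fit of all 12 libraries, with p adjusted over 15477 genes. The common biological coefficient of variation was 0.113. SE were derived from the fold change and its F statistic. Alternatives used DESeq2 1.42.0, limma 3.58.1, sva 3.50.0, other scalings and filters, fits of the compared groups alone, offsets that remove GC and length trends (splines with 5 degrees of freedom), a minimum change of 1.5-fold, and leaving out 1 library at a time. The tests were also checked on simulated counts with known changes. Without a trend, 4 of 185 edgeR calls were false in TAC KO versus TAC WT, and 6 of 190 in TAC KO versus Sham WT. With a GC trend put into TAC KO, 243 of 428 and 263 of 452 calls were false. With the GC and length offsets, 6 of 190 and 4 of 191 were false. The simulated GC trend was the same in every TAC KO library. No length trend and no library with a steeper trend were simulated, so the length part of the offsets was not checked. The main calls here come from the fit without these offsets. Near-identical copies were searched with BLAST 2.17.0+ at 95% identity over 50% of the transcript. Reads carry no molecular identifiers, so counting limits cover counting error only.

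The members and lists were chosen with earlier results of these data known. By rule, values in every library are given for 16 core genes and, in each comparison, for the 12 passing members with the smallest p and the 3 passing members at each end of the fold changes. From each pathway list up to 4 passing genes with the smallest p are named. Members named beyond these rules, and Bach1, were chosen after their values were seen. Some results of genes outside the symbol rule are not reported here.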

Additional observations from a re-analysis of the deposited data

Results flagged for a closer look

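In each of 171 combinations of a member and a group, the highest and the lowest value were compared with the other 3. By Dixon's criterion at the 95% level, 11 values stood apart, some of them in the same library. Chance alone gives about 1 in 20 such combinations. In TAC KO, Gstt2 had 16.1 CPM in replicate 1, against 6.36 to 7.82 in the other TAC KO libraries, and Txndc11 had 20.2 CPM in replicate 3, against 16.7 to 16.9. In TAC WT, Txnrd1 had 59.7 CPM in replicate 3, against 83.8 to 87.3 in the other TAC WT libraries. Replicate 4 of TAC WT had 25.6 CPM of Gpx8, against 23.2 to 23.5, and 0.919 CPM of Gsto2, against 1.24 to 1.26.

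In Sham WT, replicate 1 was low in Mgst1, with 16.1 CPM against 30.2 to 32.5 in the other sham libraries, and high in Sod2, with 624.7 CPM against 533 to 540. Replicate 2 had 17.5 CPM of Gpx8, against 19.4 to 19.5, and replicate 3 had 3.26 CPM of Gstp2, against 2.91 to 2.93. Replicate 4 of Sham WT had 17.6 CPM of Gclm, against 20.3 to 20.7, and 3.56 CPM of Gstt3, against 2.61 to 2.74.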

How the results depend on the processing

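No paired analysis was possible because the labels carry no replicate numbers. Leaving out 1 library at a time gave, for TAC KO versus TAC WT, 3963 to 5080 genes changed, 20 to 27 members higher, 0 lower and medians of 0.18 to 0.23. For TAC WT versus Sham WT it gave 2251 to 3474 genes, 6 to 10 members higher, 6 to 11 lower and medians of -0.09 to -0.04. For TAC KO versus Sham WT it gave 3070 to 3851 genes, 15 to 21 members higher, 0 to 4 lower and medians of 0.16 to 0.18. No named member changed sign where it had passed.

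With GC and length trends removed, TAC KO versus TAC WT had 19 members higher. Without TAC KO replicate 1 as well, a setting chosen after seeing the data, it had 13 and 2969 genes changed in all. In TAC KO versus Sham WT the count of members lower was 5 and 6 under these settings, the second with a median of 0.10. It was 4 without TAC KO replicate 1, 2 with voom, with the compared groups alone and with 1 surrogate variable, and 1 with no low-count filter, with a filter of 1 CPM in 4 libraries and with members taken at 1 count in any library. Voom gave 14 members lower in TAC WT versus Sham WT, and limiting the Txn prefix to Txn1 and Txn2 left 5 higher there. A 1.5-fold minimum left 1332 genes and 5 members higher in TAC KO versus TAC WT, 1248 genes, 1 member higher and 3 lower in TAC WT versus Sham WT, and 1172 genes and 5 members higher in TAC KO versus Sham WT, as fewer genes meet a stricter rule. The cause of the other shifts was not tested.

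Of the calls in TAC KO versus TAC WT, 10 of 29 were kept in every alternative other than the 1.5-fold minimum. In that comparison 11 of the 29 were lost in 1 or more fits that left out 1 library. In TAC WT versus Sham WT 12 of 17 calls were kept in all these alternatives, and in TAC KO versus Sham WT 13 of 18. Gsta1, 1 of the 13, was not tested under the filter of 1 CPM in 4 libraries. Some calls described as lost without a library were also lost with other scalings, filters or tests, and these losses are not all listed gene by gene. Low counts limit Gsta1, Gsto2, Gstm6 and Gstp2.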

Other observations

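Among 15 genes that produce superoxide or peroxide, 2 were higher and 2 lower in TAC KO than in TAC WT, and 3 were higher and 1 lower in TAC WT than in Sham WT. These counts are near the background, as 33% of all tested genes were called in either direction in the first comparison and 19.7% in the second. Nox4, an NADPH oxidase that releases hydrogen peroxide, averaged 1.86 ± 0.444 CPM in TAC KO, 2.76 ± 0.253 in TAC WT and 1.097 ± 0.191 in Sham WT (SD, n = 4 each). It was at -0.57 in TAC KO over TAC WT (SE 0.17, edgeR adjusted p = 0.0203) and 1.33 higher in TAC WT than in Sham WT (SE 0.18, adjusted p = 0.00019). Maob, a mitochondrial amine oxidase that makes peroxide, averaged 41.0 ± 2.77 CPM in TAC KO, 28.1 ± 4.81 in TAC WT and 50.7 ± 4.33 in Sham WT. Its differences were 0.54 for TAC KO over TAC WT (SE 0.11, adjusted p = 0.00195) and -0.85 for TAC WT over Sham WT (SE 0.11, adjusted p = 0.000109). Ero1l, an oxidase of the endoplasmic reticulum, was at -0.45 in TAC KO over TAC WT (SE 0.07, adjusted p = 0.000366), and Cyba, a subunit of NADPH oxidases, was 0.38 higher (SE 0.09, adjusted p = 0.0065).

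Several members, such as Gpx1, Gpx4 and the thioredoxin reductases, are selenoproteins. Of 12 genes of selenoprotein synthesis and transport, 4 were higher and 3 lower in TAC KO than in TAC WT, beside 15.7% and 17.3% of all tested genes. Sephs2, which makes the selenium donor, was 0.33 higher (SE 0.06, edgeR adjusted p = 0.000876), and the selenium carrier Selenop averaged 241 ± 32.9 CPM in TAC KO, 181 ± 24.0 in TAC WT and 219 ± 11.2 in Sham WT, with a difference of 0.42 between TAC KO and TAC WT (SE 0.10, adjusted p = 0.00712). Secisbp2, which recodes the stop codon for selenocysteine, was at -0.26 (SE 0.06, adjusted p = 0.00671). Lrp8, a receptor for Selenop, was the only one of the 12 to pass between TAC WT and Sham WT, at 11.6 ± 8.92 CPM in TAC WT and 1.06 ± 0.211 in Sham WT (3.44, SE 0.57, adjusted p = 0.000813), with a wide spread within TAC WT.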
